A study of Mus musculus with 9 samples.

Results

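The genes described here are those for the alpha-arrestins Txnip, Arrdc1, Arrdc2, Arrdc3 and Arrdc4, and for the paired transcription factors Mlx and Mlxip, the mouse gene of MondoA. They were found by gene name in the deposited count table, and all 7 were present among its 20627 features and passed the filter on low counts. The 9 poly(A) RNA-seq libraries came from RAW264.7, a macrophage-like mouse cell line, with 3 in each of 3 groups. The HG cells had been in 35 mmol/l glucose over 6 h. The HG-SIG cells had sitagliptin phosphate, an inhibitor of dipeptidyl peptidase 4, added to that glucose over 6 h. NC was taken as the control, and neither its glucose concentration nor its time is given in the sources used here. There was no osmotic control and no group given sitagliptin alone.

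MondoA and Mlx form a dimer that senses glucose 6-phosphate. When glucose enters a cell and is phosphorylated, the dimer moves to the nucleus and binds E-box-like elements, and Txnip and Arrdc4 are its best known targets. Txnip binds thioredoxin and promotes the removal of glucose transporters from the plasma membrane, so that its induction limits further glucose uptake. Alpha-arrestins carry PPxY motifs that recruit NEDD4-family ubiquitin ligases to membrane proteins.

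The promoters are shown first because this element is how the dimer recognises its targets. RefSeq promoter windows (GRCm38.p6, 250 bases before to 50 bases after a start) were matched by symbol for all 7 genes. Both strands were searched for the E-box CACGTG, the variant CACGAG, the carbohydrate response element as 2 such elements 5 bases apart (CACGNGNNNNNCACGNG), and the CCAAT box. The upstream bases of the 2 genes that rose in HG, Txnip and Arrdc2, and of Arrdc4, the other known target, are given 5′ to 3′ on the coding strand. Capitals mark CACGTG in Arrdc4, the variant (read as CTCGTG) in Arrdc2, and the whole double element with its 5 spacer bases in Txnip. The Txnip sequence lies at chr3:96557707-96557956 (plus strand), that of Arrdc2 at chr8:70839721-70839970 (minus strand) and that of Arrdc4 at chr7:68749242-68749488 (minus strand).
Txnip: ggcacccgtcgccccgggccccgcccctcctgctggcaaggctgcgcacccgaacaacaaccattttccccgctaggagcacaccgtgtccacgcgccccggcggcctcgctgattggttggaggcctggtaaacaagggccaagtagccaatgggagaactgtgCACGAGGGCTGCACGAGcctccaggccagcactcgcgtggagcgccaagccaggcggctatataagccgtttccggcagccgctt
Arrdc2: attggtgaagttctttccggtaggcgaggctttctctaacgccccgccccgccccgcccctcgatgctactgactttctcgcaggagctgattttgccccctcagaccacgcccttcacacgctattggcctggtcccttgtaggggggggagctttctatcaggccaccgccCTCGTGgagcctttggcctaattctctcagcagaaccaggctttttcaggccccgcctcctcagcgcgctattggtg
Arrdc4: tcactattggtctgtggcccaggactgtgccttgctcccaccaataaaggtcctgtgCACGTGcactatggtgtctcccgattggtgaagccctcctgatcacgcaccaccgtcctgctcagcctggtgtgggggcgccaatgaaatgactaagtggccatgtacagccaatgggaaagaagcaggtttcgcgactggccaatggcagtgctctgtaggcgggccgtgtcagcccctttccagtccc

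The Txnip promoter held the double element, 85 to 69 bases upstream of the RefSeq start, in which both elements read CACGAG, so that each was also counted as a variant match. The double element was found in 15 of 27025 genes with a window (0.0555%). Arrdc4 had a single CACGTG, 193 to 188 bases upstream, and Mlx had one 40 to 35 bases upstream, while 8.09% of all genes held CACGTG. The variant, read as CTCGTG on the coding strand, occurred once in Arrdc2 and at 2 places in Arrdc1, against 7.47% of all genes. Neither Mlxip nor any of the 3 Arrdc3 windows held either form. Arrdc4 also held 6 CCAAT boxes, Arrdc2 3 and Txnip 2, and 41.1% of all genes held at least 1. These matches describe letters in a window and not binding.

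Library totals ranged from 23285821 to 31571578 counts. Libraries of a group differed by 2.82 to 9.14 chi-square units per gene, so none was a copy of another, and HG replicate 3 stood farthest from its group (9.14 and 8.31 units against 3.52 between the other HG libraries). All 10 macrophage markers had counts in every library. Aif1 was the lowest, with 87, 48 and 32 counts summed over the 3 libraries of NC, HG and HG-SIG. Their summed level was 11364 to 11820 CPM in NC libraries, 10212 to 11009 CPM for HG and 5352 to 5460 CPM for HG-SIG, where CPM is the count relative to the library total, scaled with TMM, a method that sets the bulk of genes equal between libraries. Of 12 markers of epithelial, fibroblast, lymphoid and fat cells, 10 were in the table with a summed level of 0.252 to 0.937 CPM. The lower macrophage markers therefore moved with every HG-SIG comparison. In HG against NC, 1 of the 10 markers was called higher and 5 lower (edgeR, adjusted p under 0.05), with a median log2 fold change of -0.17. Over all tested genes, 14.3% were called higher and 15.2% lower in that comparison. From HG to HG-SIG, 9 of the 10 markers fell and 0 rose by the same test, with a median of -0.73. The share of all tested genes was 26.8% lower and 25.7% higher. Between NC and HG-SIG all 10 fell, with a median of -0.91, beside 28.7% lower and 29.9% higher of all tested genes. Scaled by library size alone, 9 and 10 markers were again lower, with medians of -0.57 and -0.72. The part of the markers in the results of any comparison was not tested. In bulk RNA of 1 cell line, fewer cells expressing a marker and less marker RNA per cell cannot be told apart.

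Txnip was the most abundant of these transcripts, and ranked 501 of 13311 tested genes by mean CPM. To compare genes, levels were divided by exonic length. Txnip stood at 83.7 ± 8.97 CPM per kb in NC, at 109 ± 10.8 in HG and, with sitagliptin, at 114 ± 11.5 (SD, n = 3). It made up 84.2% to 88.0% of the summed length-scaled level of the 5 alpha-arrestins in a library. Mlx followed at 28.2 ± 1.24 CPM per kb in NC, then Arrdc1 at 9.52 ± 0.471, Mlxip at 8.16 ± 0.110, Arrdc3 at 2.75 ± 0.489, Arrdc2 at 1.64 ± 0.0531 and Arrdc4 at 0.945 ± 0.0869 (SD, n = 3). Each neighbour in this order was separated from the next in all 3 NC libraries. In HG the order of Arrdc2 and Arrdc3 was exchanged, at 2.48 ± 0.213 and 2.35 ± 0.401 CPM per kb, and their libraries overlapped. In HG-SIG Arrdc2 (2.47 ± 0.121) stood above Arrdc3 (2.02 ± 0.248) without overlap. Mlx transcript exceeded Mlxip transcript by 3.07 to 4.0 times per kb in every library.

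**Figure D1:**
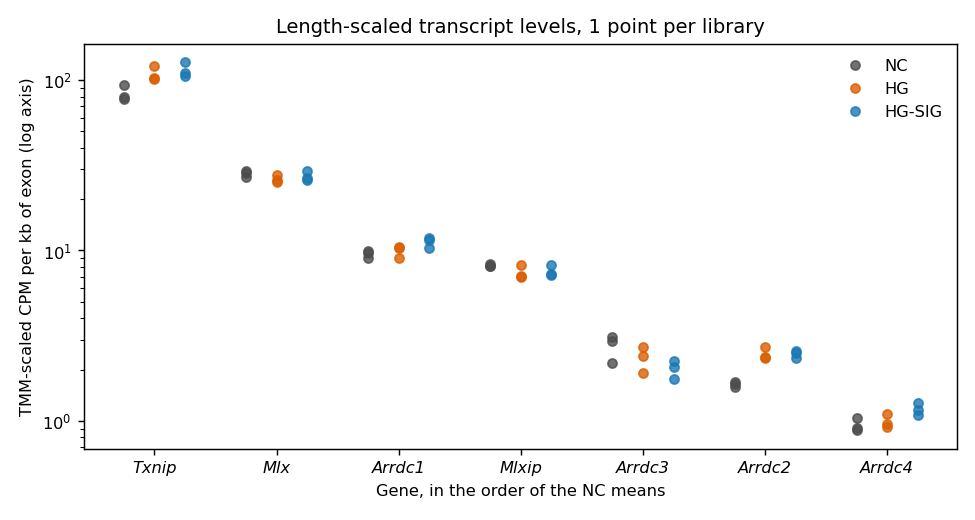
Length-scaled level (TMM-scaled CPM per kb of exon, log axis) of each gene in the 9 libraries, 1 point per library, coloured by group. Txnip is highest in every library and Arrdc4 lowest, and Arrdc2 and Arrdc3 are the neighbours that change order between NC and the other groups.

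HG was compared with NC to ask which of these genes differed in high glucose. Txnip and Arrdc2 rose, and no member fell. Of all tested genes 29.5% were called in this comparison (edgeR quasi-likelihood test, Benjamini-Hochberg adjusted p under 0.05), 14.3% higher and 15.2% lower in HG, so 2 of 7 is near the background. Txnip and Arrdc2 were also the 2 members whose HG and NC libraries did not overlap, as was true of 41.7% of all genes. The median log2 fold change of the 7 genes was 0.07, against 0.00 over all genes tested.

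Txnip measured 243, 248 and 294 CPM in NC replicates 1 to 3, and 319, 321 and 378 CPM in HG. Every HG library lay above every NC library, and in each group replicate 3 was the highest and replicate 1 the lowest. The mean rose from 261 ± 28.0 to 339 ± 33.7 CPM (SD, n = 3), a fitted change of 29.7% (log2 fold change 0.38 ± 0.09 SE, 95% interval 0.18 to 0.57, edgeR adjusted p = 0.00633). This change was larger in size than that of 82.3% of tested genes. The call held under all 13 alternatives, with log2 fold changes from 0.29 to 0.47, and was lowest without HG replicate 3 (0.29, adjusted p = 0.0178). Txnip lies at chr3:96557957-96561883 (GENCODE M21, mm10; plus strand, identifier ENSMUSG00000038393), and shares 606 bases (19.4%) of its exonic length with the opposite-strand gene Gm15441. No source used here gives the strand setting of the counting. Gm15441 had 8 to 19 counts a library against 6005 to 13306 for Txnip.

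Arrdc2, an alpha-arrestin less studied than Txnip, had the largest fold change of the 7 genes. It measured 5.11, 5.33 and 5.45 CPM in NC and 7.69, 7.53 and 8.80 CPM in HG. The mean rose from 5.30 ± 0.172 to 8.01 ± 0.688 CPM (SD, n = 3), a fitted change of 50.8% (log2 fold change 0.59 ± 0.09 SE, 95% interval 0.40 to 0.79, edgeR adjusted p = 2.7e-04). The groups did not overlap, and the call held under all 13 alternatives (0.52 to 0.63). These values rest on 129 to 259 counts a library. The gene lies at chr8:70835129-70839720 (minus strand, ENSMUSG00000002910).

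Arrdc4, the other known MondoA target and the lowest of the 7 genes, did not pass the test. It measured 3.68, 3.55 and 4.21 CPM in NC and 4.39, 3.88 and 3.74 CPM in HG, and the groups overlapped. The log2 fold change was 0.07 ± 0.12 (SE, 95% interval -0.19 to 0.33, edgeR adjusted p = 0.708). It had 85 to 161 counts a library. The difference between the responses of Txnip and Arrdc4 was not tested. Arrdc4 lies at chr7:68736995-68749241 (minus strand, ENSMUSG00000042659).

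Arrdc1, which is released in budding microvesicles, measured 22.6, 24.2 and 24.9 CPM in NC and 26.0, 22.7 and 26.4 CPM in HG, which is 0.07 ± 0.07 on the log2 scale (SE, adjusted p = 0.539). Arrdc3, a regulator of beta-adrenergic receptor signalling, measured 19.5, 13.7 and 18.4 CPM in NC and 15.1, 12.0 and 17.0 CPM in HG. Its fold change was -0.24 ± 0.14 on the log2 scale (SE, adjusted p = 0.239), and ran from -0.11 without HG replicate 2 to -0.37 without NC replicate 2. The groups overlapped for both genes, and replicate 2 was the lowest Arrdc3 library in every group. Arrdc1 lies at chr2:24925352-24935252 (minus strand, ENSMUSG00000026972) and Arrdc3 at chr13:80883384-80896042 (plus strand, ENSMUSG00000074794).

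Transcripts of the glucose sensor itself did not pass the test in HG. Mlx measured 58.7, 56.7 and 53.8 CPM in NC and 51.6, 55.5 and 50.6 CPM in HG, which is -0.10 ± 0.05 on the log2 scale (SE, adjusted p = 0.195). Mlxip measured 67.2, 68.9 and 67.7 CPM in NC and 59.0, 57.8 and 68.7 CPM in HG, which is -0.14 ± 0.07 on the log2 scale (SE, adjusted p = 0.14). HG replicates 1 and 2 lay below all NC libraries for Mlxip and HG replicate 3 lay within them. Without HG replicate 3, Mlxip was lower in HG by the same test (-0.22, adjusted p = 0.00721). Mlx lies at chr11:101087277-101092207 (plus strand, ENSMUSG00000017801) and shares 385 bases (19.3%) of its exonic length with Psmc3ip, which had 464 to 713 counts a library against 1151 to 1813 for Mlx, so the Mlx value may include reads of that gene. Mlxip lies at chr5:123394798-123457932 (plus strand, ENSMUSG00000038342). Its partner gene Gm15747, sharing 267 bases (3.21%), had at most 1 count. Mlxipl, the related sensor ChREBP, had 0 counts in each NC library, 2, 4 and 3 counts in HG and 2, 2 and 0 in HG-SIG, and was too low to be tested.

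**Figure D2:**
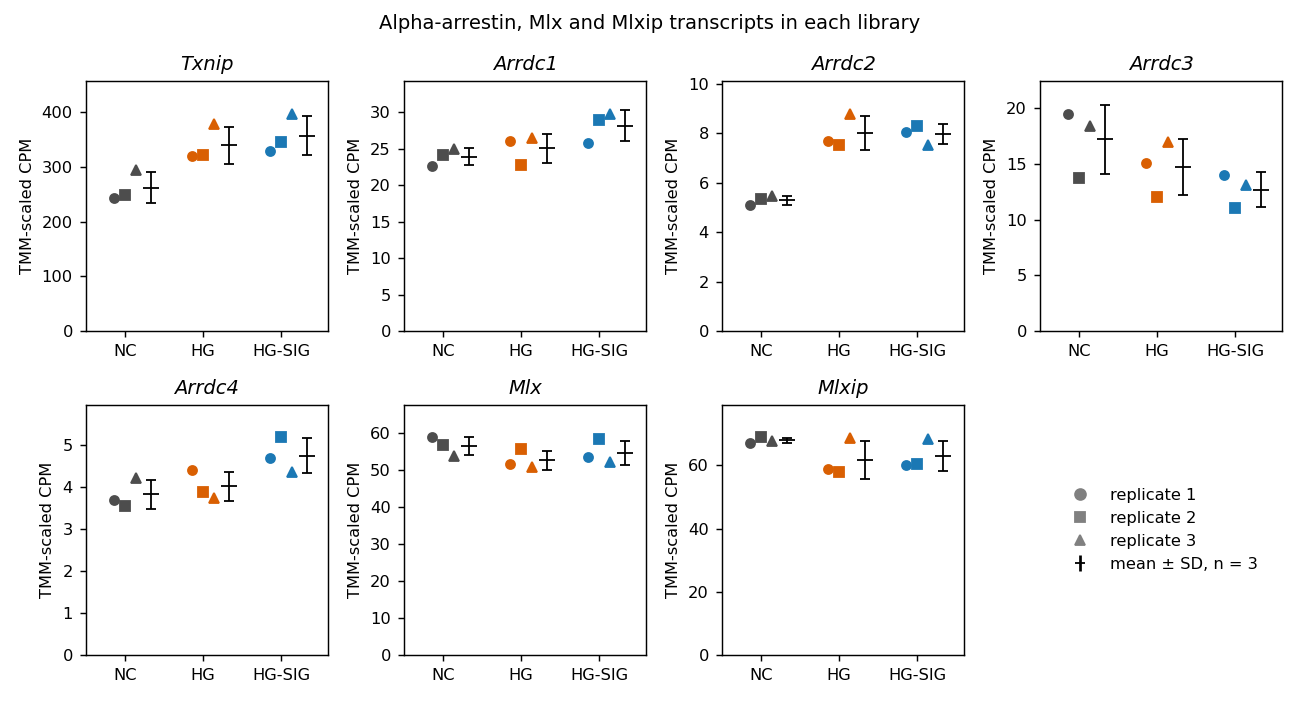
TMM-scaled CPM of each gene in every library, with the mean and SD of each group of 3 beside the points (each vertical axis starts at 0). Txnip and Arrdc2 are higher in HG and HG-SIG than in any NC library, while for the other genes the HG and NC libraries overlap.

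HG-SIG was compared with HG to ask what sitagliptin changed in high glucose. With TMM scaling 0 of the 7 genes were called by edgeR, while 52.5% of all tested genes were, 25.7% higher and 26.8% lower. DESeq2 and limma-voom also called 0, and at an unadjusted p under 0.05 edgeR called 1, Arrdc1. With the replicate number as a block, edgeR called 3: Txnip (0.07, adjusted p = 0.0447), Arrdc1 (0.17, adjusted p = 0.0399) and Arrdc3 (-0.21, adjusted p = 0.0232). In each of the 3 same-numbered pairs Txnip was higher and Arrdc3 lower in HG-SIG, but nothing in the labels says that a number marks a shared culture or day. The libraries of the groups overlapped for all 7 genes, against 58.7% of all genes whose libraries did not overlap. The median log2 fold change of the 7 was 0.05, against 0.01 for all genes.

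Txnip measured 328, 345 and 397 CPM in HG-SIG, a mean of 357 ± 35.9 (SD, n = 3), and differed from HG by 0.07 ± 0.09 on the log2 scale (SE, 95% interval -0.12 to 0.26, edgeR adjusted p = 0.513). Arrdc2 measured 8.05, 8.32 and 7.55 CPM, and its 95% interval against HG was -0.19 to 0.18 (adjusted p = 0.992). Both genes were also higher in HG-SIG than in NC, as given below. Their intervals against HG leave room for a change in either direction, so they do not show that sitagliptin had no effect. Arrdc1 measured 25.8, 28.9 and 29.8 CPM (0.17 ± 0.07, adjusted p = 0.0646; called without HG replicate 3, at 0.21 and 0.0371, and without HG-SIG replicate 1, at 0.23 and 0.0225), Arrdc4 4.67, 5.17 and 4.35 CPM (0.23 ± 0.12, adjusted p = 0.106) and Arrdc3 14.0, 11.0 and 13.1 CPM (-0.21 ± 0.14, adjusted p = 0.234; from -0.10 to -0.34 with single libraries left out). Mlx measured 53.4, 58.2 and 52.0 CPM (0.05 ± 0.05, adjusted p = 0.439), and Mlxip 60.1, 60.6 and 68.3 CPM (0.03 ± 0.07, adjusted p = 0.72).

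This result depends on the scaling. TMM factors were 1.078 to 1.091 in HG-SIG and 0.9609 to 0.9767 in HG. Scaled by library size alone, the median of all genes moved to 0.17 and 5 of the 7 genes were called higher: Txnip (0.23), Arrdc1 (0.33), Arrdc4 (0.40), Mlx (0.21) and Mlxip (0.19). The series states limma on log2 TPM, and on log2(TPM + 1) the same 5 were called with a median of all genes of 0.19. Of calls over all genes, 76.9% were higher in HG-SIG with library size and 81.9% with TPM, against 48.9% with TMM. Relative to the median of all genes, Txnip stood at 0.06 with TMM and with library size and 0.09 with TPM, Arrdc4 at 0.22, 0.23 and 0.16, and Arrdc2 at -0.01 in all 3. Deposited counts alone do not tell whether total messenger RNA per cell differed.

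**Figure D3:**
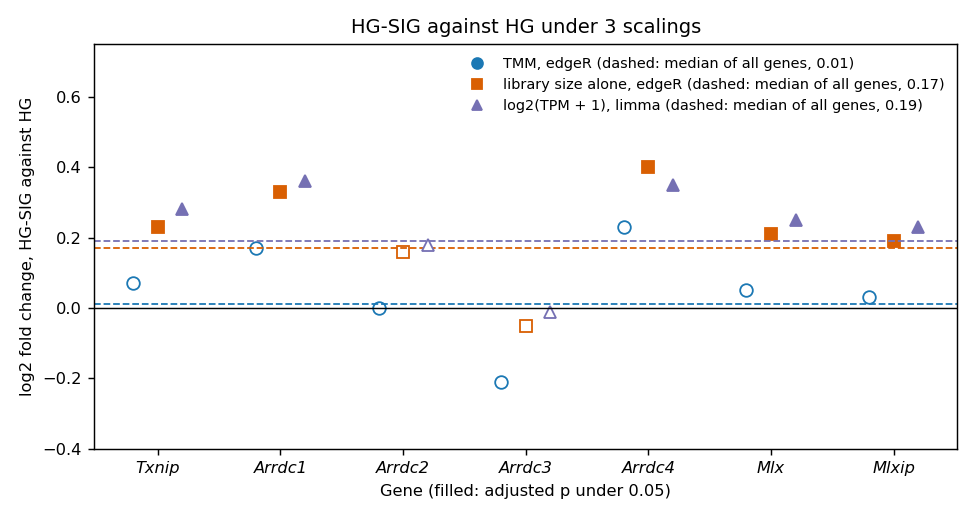
Log2 fold change of each gene in HG-SIG against HG under TMM, library size alone and log2(TPM + 1), with dashed lines at the median of all genes under each. Each gene moves by about as much as its dashed line, and symbols fill (adjusted p under 0.05) for 5 genes under the last 2 scalings and for 0 under TMM.

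HG-SIG against NC shares its libraries with both other comparisons and is no independent support for either. Against NC, 5 of the 7 genes were called with TMM, 4 higher and 1 lower, against 58.6% of all genes (29.9% higher, 28.7% lower). The libraries did not overlap for 4 of the 7, against 65.9% of all genes. Txnip was higher by 0.45 ± 0.09 (SE, edgeR adjusted p = 7.7e-04) and Arrdc2 by 0.59 ± 0.09 (adjusted p = 8.1e-05) on the log2 scale, and both calls held under all 13 alternatives. Arrdc1 was higher by 0.24 ± 0.07 (adjusted p = 0.0124), a call lost without NC replicate 1 or HG-SIG replicate 3 (adjusted p up to 0.0594).

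Arrdc4 was called higher by 0.30 ± 0.11 (SE, edgeR adjusted p = 0.0359). That call was lost under 5 of 13 alternatives, among them DESeq2 (adjusted p = 0.158) and the omission of NC replicate 1 or 2 or HG-SIG replicate 1 or 2. Arrdc3 was called lower (log2 fold change -0.45 ± 0.14 SE, adjusted p = 0.0145), with overlapping libraries. Its call was lost with library size (-0.26) and TPM (-0.18) and without NC replicate 1, NC replicate 3 or HG-SIG replicate 2. Mlx (-0.05, adjusted p = 0.462) and Mlxip (-0.11, adjusted p = 0.174) were not called with TMM, and Mlx was called higher with library size (0.14) and TPM (0.19). Without HG-SIG replicate 3, Mlxip was called lower by edgeR with TMM (-0.17, adjusted p = 0.044).

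**Figure D4:**
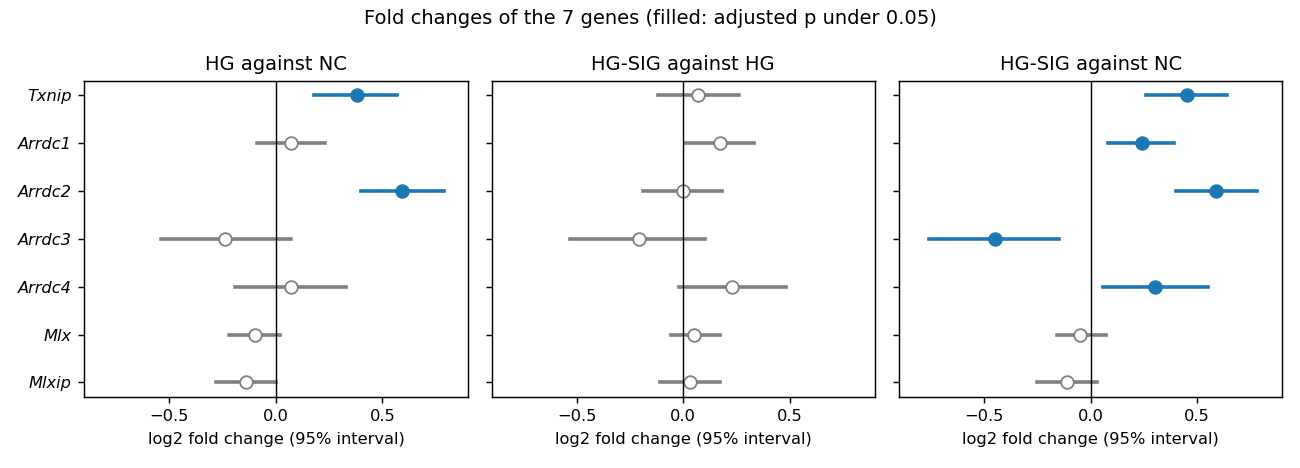
Log2 fold changes (TMM, edgeR) with 95% intervals for the 7 genes in the 3 comparisons, filled where the adjusted p is under 0.05. Txnip and Arrdc2 are filled in both comparisons with NC, and the middle panel has no filled symbol.

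Among the 7 genes, the pattern over the 9 libraries nearest to Txnip was that of Arrdc2, by a root mean square difference of 0.141 of log2 CPM centred on each gene's mean, and Arrdc1 and Arrdc4 were 0.123 apart. Mlx and Mlxip were 0.129 apart, and Arrdc2 and Arrdc3 were the farthest (0.478). Over 9387 tested genes, the nearest to Txnip were Lrrc8c, a subunit of volume-regulated anion channels (0.0706), Ddb2, a DNA damage recognition factor (0.0726), Rps12, Rfng and Rcor3. Those nearest to Arrdc4 were Naa30 (0.0618), Immp1l, Ebag9, Lypla1 and Hace1, and to Mlxip the nearest included Synj1 (0.0400), Prkd3 and Prkcd. These are descriptions over libraries that share the same group differences.

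The other genes of the pathway were counted in lists, whose counts are to be read against the share of all genes called in each comparison. The lists were chosen with earlier results of these data known, so their counts are descriptions and not tests of a list. Of 10 tested glucose-responsive genes, 6 rose and 1 fell in HG, with a median log2 fold change of 0.16, where 14.3% of all genes were higher and 15.2% lower. Scd1, a fatty acid desaturase, rose by 0.54 ± 0.04 (SE, edgeR adjusted p = 7.3e-07), Elovl6, a fatty acid elongase, by 0.51 ± 0.05, and Fasn, fatty acid synthase, by 0.44 ± 0.04. Rgs16, a regulator of G protein signalling, fell from 193 ± 9.39 to 32.8 ± 2.05 CPM (SD, n = 3). Between HG-SIG and HG, 6 fell and 0 rose, with a median of -0.23, where 26.8% of all genes were lower and 25.7% higher. Scd1 fell by 0.36 ± 0.04 and Rgs16 fell by 4.33 ± 0.10. With library size the split was 3 higher and 4 lower, and Fasn (-0.22 with TMM) was no longer called (-0.06).

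Among 8 tested genes of the MLX/MAX network, whose proteins dimerise with Mlx or Max, 2 rose and 1 fell in HG, against 29.5% of all genes called. Mxd4, a repressor that competes with Myc for Max, rose from 7.86 ± 0.204 to 11.5 ± 0.463 CPM (SD, n = 3), and Myc fell from 18.9 ± 1.66 to 2.57 ± 0.635 CPM. The other call, Mnt (0.13, edgeR adjusted p = 0.0451), held under only 4 of 13 alternatives. With sitagliptin, HG-SIG against HG, 4 rose and 3 fell, against 52.5% of all genes called. Mxd4 rose again to 24.2 ± 0.606 CPM (1.08 ± 0.06 on the log2 scale), Mxd1 rose by 1.00 ± 0.10, and Myc fell by 3.46 ± 0.29 to 0.230 ± 0.0864 CPM. The calls of Mxd4, Mxd1 and Myc kept their direction with library size and TPM.

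Genes of glucose entry and of glucose 6-phosphate, which the sensor detects, were listed together, whether they supply or remove it. Of 14 tested, 6 fell and 0 rose in HG, with a median of -0.07 and 29.5% of all genes called. With library size it was 5 lower and 2 higher. Slc2a1, the glucose transporter GLUT1, fell from 338 ± 15.6 to 169 ± 11.3 CPM (SD, n = 3; log2 fold change -1.0 ± 0.08, edgeR adjusted p = 8.7e-07), and Hk2, a hexokinase, from 188 ± 5.63 to 141 ± 11.4 CPM. From HG to HG-SIG, 8 fell and 2 rose (6 and 3 with library size), against 52.5% of all genes called. Hk1 fell by 0.51 ± 0.04, while Slc2a1 measured 160 ± 20.8 CPM and was not called (-0.08, adjusted p = 0.429).

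Genes of the thioredoxin system and of the NLRP3 inflammasome, which include reported partners of the Txnip protein, were counted too. Of 14 tested thioredoxin system genes, 4 fell and 0 rose in HG, near the 29.5% of all genes called. Glrx, glutaredoxin, fell by 1.41 ± 0.06, Prdx5 fell by 0.39 ± 0.05, and Txnrd1, thioredoxin reductase, fell by 0.20 ± 0.04. Txn1, the thioredoxin that Txnip binds, was not called in HG (-0.02, edgeR adjusted p = 0.783), and fell in HG-SIG against HG (-0.26, adjusted p = 5.0e-04), a call lost with library size (-0.10). In that comparison 4 rose and 6 fell (6 and 3 with library size), against 52.5% of all genes called. Nxn, nucleoredoxin, rose by 1.98 ± 0.20 and Txnrd3 by 0.97 ± 0.11. Of 6 tested NLRP3 inflammasome genes, 4 fell and 1 rose in HG, against 29.5% of all genes called. Nlrp3, the sensor that Txnip has been reported to bind, fell from 142 ± 1.98 to 71.1 ± 5.30 CPM (SD, n = 3). From HG to HG-SIG, 2 fell and 1 rose (2 and 3 with library size), near the 52.5% of all genes called, with Nlrp3 at -0.51 ± 0.05 and Gsdmd at -0.91 ± 0.05. Il1b, the gene for interleukin 1 beta, was among the 4, with 19, 10 and 23 counts in NC and 0, 0 and 2 in HG, and DESeq2 did not call it.

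Of 8 tested genes for NEDD4-family ligases and their adaptors, 3 fell in HG (1 with library size) and 0 rose, against 29.5% of all genes called. In HG-SIG against HG 5 rose and 1 fell, with a median of 0.23 and 52.5% of all genes called. Itch, the ligase known to ubiquitinate Txnip, rose from 65.2 ± 3.38 to 82.8 ± 2.49 CPM (SD, n = 3; 0.35 ± 0.04, edgeR adjusted p = 3.4e-05), Smurf1 by 0.43 ± 0.07 and Smurf2 by 0.37 ± 0.04. Wwp2 fell by 0.14 ± 0.04, and with library size it was not called (0.02). AMPK is a kinase that phosphorylates Txnip. The 8 tested genes of its list were AMPK subunits together with Stk11, Cab39 and Strada, which are not subunits of it. Of the 8, 2 rose and 2 fell in HG (29.5% of all genes called), with Prkag2 at 0.37 ± 0.05. In HG-SIG against HG 3 rose and 1 fell (7 and 0 with library size), near the 52.5% of all genes called, with Strada at 0.40 ± 0.05.

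ESCRT genes, which serve the vesicle budding that Arrdc1 drives, gave 3 lower and 0 higher of 10 in HG, near the 29.5% of all genes called, with Vps37a at -0.33 ± 0.06. HG-SIG against HG gave 4 higher and 4 lower (6 and 0 with library size), against 52.5% of all genes called, and Vps4a rose by 0.32 ± 0.04 (edgeR adjusted p = 4.8e-05). Of 6 other tested arrestin-fold genes, 0 were called in HG by edgeR (29.5% of all genes) and 1 had an unadjusted p under 0.05. In HG-SIG against HG 1 rose and 2 fell, near the 52.5% of all genes called. Arrb2, beta-arrestin 2, fell from 145 ± 6.63 to 97.4 ± 4.31 CPM (SD, n = 3), Vps26b, a retromer subunit, rose by 0.27 ± 0.03, and Vps26c was called lower (-0.11), but was 0.05 and not called with library size.

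**Figure D5:**
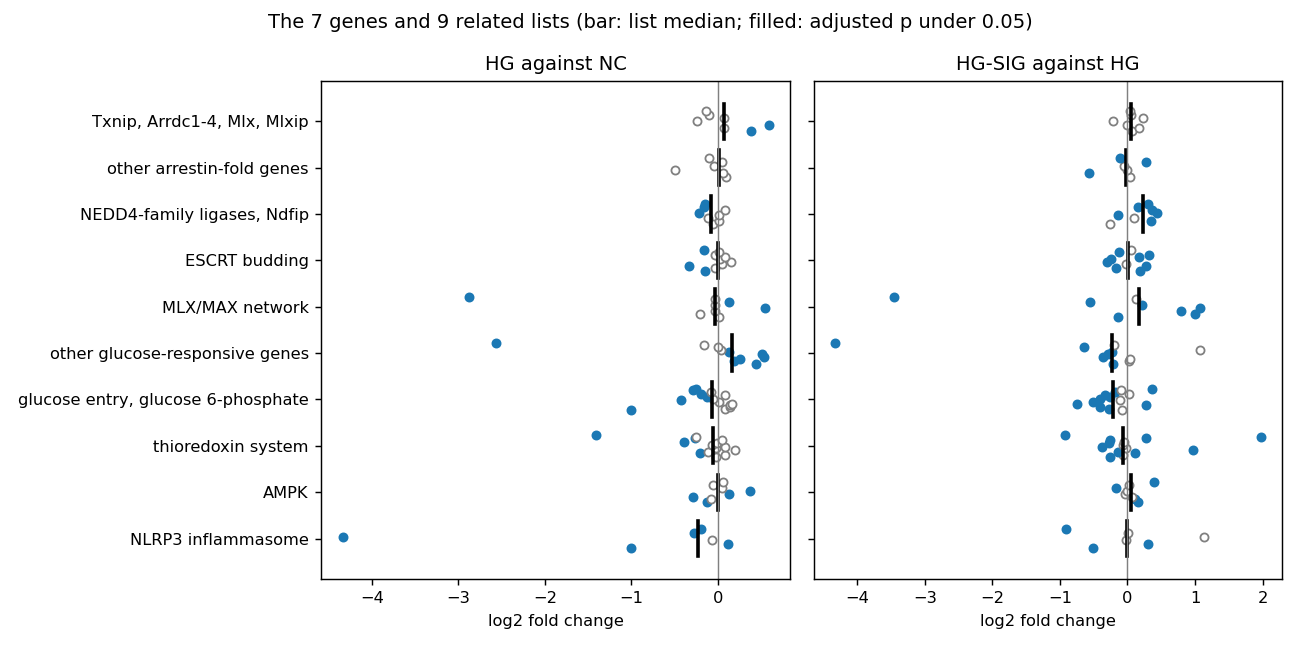
Log2 fold changes (TMM, edgeR) of the 7 genes and of the tested members of 9 related lists, for glucose (left) and for sitagliptin in glucose (right), with a bar at each list's median. The 7 genes lie between -0.24 and 0.59, while single genes of the other lists, such as Myc and Rgs16, reach below -2.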

How the data were processed

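Per the labels' protocols, RNA was extracted with Trizol, selected with oligo(dT) beads and primed with random hexamers. The deposited values were whole-number gene counts, which the authors made with Bowtie2 2.3.5, RSEM and build mm10 per the submitters' processing notes. RSEM estimates could have been rounded before deposit, and neither annotation nor strand setting is given in the sources used here. Groups and replicate numbers came from sample titles.

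Counts were filtered with filterByExpr (13311 genes), scaled with TMM and tested with edgeR 4.0.16 (R 4.3.3, quasi-likelihood F-test) in 1 model over all 9 libraries, with Benjamini-Hochberg adjustment over all tested genes and a threshold of 0.05. Standard errors were computed from F and the log2 fold change. TMM-scaled CPM gave the levels, per kb of GENCODE M21 exonic length where genes are compared. Alternatives were library size alone, DESeq2 1.42.0, limma-voom and limma 3.58.1 on log2(TPM + 1), no filter, 2 groups only, the replicate number as a block, and each replicate left out. The edgeR steps were tested on simulated counts in which few genes changed, equally up and down. That simulation did not test the choice of scaling.

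The members and lists were chosen with earlier results of these data known. From each list up to 4 genes with the smallest p in HG against NC and in HG-SIG against HG could be named, besides all members and the 5 nearest genes in pattern to Txnip, Arrdc4 and Mlxip, of which 1 is not reported here and 1 is not described. Txn1, Wwp2, Mlxipl, Pycard and Aif1 were named after their values were seen. Whether replicates were separate cultures is not stated. The spread behind each p-value is that between these libraries and may be technical.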

Additional observations from a re-analysis of the deposited data

How the results depend on the processing

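Txnip and Arrdc2 were called higher in HG and in HG-SIG than in NC under all 13 alternatives. Between HG and NC, 2 members were called under the other settings, except 4 with the replicate block and 2 to 3 with single libraries left out. In HG-SIG against HG, 5 members were called with library size alone and 5 on log2(TPM + 1), 3 with the replicate block and 0 to 1 with single libraries left out. In HG-SIG against NC, leaving out single libraries gave 2 to 5, with 2 without NC replicate 1 and 3 without HG-SIG replicate 2. Same-numbered libraries correlated by -0.003 to 0.099 in their deviations from group means over all tested genes, and not every library correlated best with its own number. Over genes at an average log2 CPM of 2 or more the same pairs correlated by 0.093 to 0.451. Those of HG-SIG and HG correlated by 0.244, 0.276 and 0.451. Pairs of unlike number ranged from -0.293 to 0.122 over these genes. Among them only HG replicate 1 correlated better with another number, by 0.122 with NC replicate 2 against 0.093 with NC replicate 1. The labels give the numbers no meaning, and the numbers were not taken as pairing. The block called Arrdc3 and Mlxip lower in HG than in NC, and Txnip and Arrdc1 higher and Arrdc3 lower in HG-SIG than in HG; Txnip in HG against NC had an adjusted p of 6.1e-07 (edgeR). Signs turned for values near 0. Arrdc2 in HG-SIG against HG (-0.00) was 0.16 with library size, 0.18 with TPM, 0.00 with limma-voom and -0.04 to 0.07 with single libraries left out. Against NC in HG-SIG, Mlx was 0.14 with library size and 0.19 with TPM and was called under both, and Mlxip was 0.08 and 0.12. Relative to the median of all genes, Mlx stood there at -0.07 with TMM and with library size and -0.04 with TPM. Mlxip stood at -0.13, -0.13 and -0.11. With single libraries left out, Arrdc4 in HG against NC ranged from -0.00 to 0.15, and in HG-SIG against HG Mlxip ranged from -0.03 to 0.11 and Txnip from -0.01 to 0.16. The cause was not tested. Arrdc4 had the fewest counts of the members (85 to 161 a library).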

Other observations

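The double element of the Txnip promoter led to a look at the other genes that hold it, which were chosen after the Txnip match was seen. Of the 15 genes, 10 were tested, Txnip included. In HG against NC 4 rose and 3 fell (edgeR, adjusted p under 0.05), where 29.5% of all genes were called. Besides Txnip, Irak1bp1 (0.27, adjusted p = 0.0377), A430005L14Rik (0.17) and Rbmxl1 (0.13) rose, and Nfkb2, a subunit of NF-kB (-1.29, adjusted p = 8.43e-10), Fnip1, a folliculin partner (-0.28), and Man2b2, a mannosidase (-0.16), fell. In HG-SIG against HG 3 rose and 3 fell, near the 52.5% of all genes called, with Nfkb2 at 0.45 and Fem1b at 0.35.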
